A study of Ovis aries with 54 samples.

Results

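The 7 lung pieces that had been given PE/LPS, porcine elastase with lipopolysaccharide, came from 7 sheep and were compared with each other by the form of their sample titles. Elastase digests the elastic fibres of the lung and lipopolysaccharide is an inflammatory wall component of gram-negative bacteria, and the pair is used here to model chronic obstructive pulmonary disease in a large animal. In 3 of the 7 pieces (2LC4B, 8LC3 and 11LC3) further characters follow the LC code of the title, and these are called long-coded pieces. In the other 4 (1LC, 14LC, 15LC and 16LC) the code LC stands alone, and these are called plain LC pieces. The number before the code was read as the sheep. The treatment label is the same for all 7 pieces. The labels do not say what LC, 3 and 4B stand for, and dose, exposure time, age, sex and breed were not in the labels used.

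Each piece was sequenced as 3 libraries, so the exposed pieces account for 21 of 54 libraries and for 7 of 18 pieces in the series. The others are 7 saline pieces, all coded RA and with the same 7 sheep numbers, and 4 control pieces (7RA, 9RA4, 10LC and 18LC) from 4 other sheep. The design text names saline and PE/LPS lung lobes of 7 sheep, and the same 7 sheep numbers occur in the titles of both, so saline and PE/LPS pieces were matched by number. The 3 libraries of a piece are repeats of 1 tissue piece, so they were added up and every test counted pieces, not libraries. With 1 piece per sheep and treatment, a difference between title classes is a difference between sheep, sampling sites and any handling that went with the title. All PE/LPS pieces are coded LC and all saline pieces RA, so treatment and code cannot be told apart in their contrasts.

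Lung tissue is dominated by the alveolus, where flat type 1 cells form the gas exchange surface and type 2 cells make surfactant, against a dense capillary bed. Small nucleolar RNAs (snoRNAs) guide chemical modification of ribosomal RNA in the nucleolus, and small nuclear RNAs (snRNAs) are the core of the spliceosome. Mature forms of most of these RNAs carry no poly-A tail, whereas the libraries were primed at poly-A, per the labels' protocols. In bulk tissue, fewer cells of a type and less RNA per cell cannot be told apart.

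Depth went with the title class. Long-coded pieces held 9653262 to 21224140 counts and plain LC pieces 22471776 to 37777824, against 12760040 to 34762189 in saline and 23106036 to 41946705 in control pieces. Library 1 of 11LC3 held 115109 counts. A running number in the titles, S46 to S54, was carried by the libraries of 2LC4B, 8LC3 and the saline piece 1RA, while all others, 11LC3 among them, had lower numbers. The labels do not say what that number means. At equal depth, 18324 to 20722 genes had a count in long-coded and 18325 to 19500 in plain LC pieces. SFTPC, the surfactant protein that defines type 2 cells, took 0.327% to 1.96% of the counts in long-coded and 2.48% to 9.48% in plain LC pieces, so it was detected in all 7. Reruns with counts thinned to the smallest piece total and without the pieces numbered S46 to S54 are given in a later section. Beyond these reruns, the part of depth and of the running number in the differences below was not tested.

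The clearest difference lay in small non-coding RNA. Entries classed as snoRNA, snRNA or other small ncRNA in the RefSeq gene table took 0.958% of the counts in 2LC4B, 0.912% in 8LC3 and 0.851% in 11LC3. They took 0.116% in 1LC, 0.0778% in 14LC, 0.184% in 15LC and 0.154% in 16LC. Every long-coded piece therefore lay above every plain LC piece, and the mean share was 0.907% ± 0.0538 in long-coded and 0.133% ± 0.0462 in plain LC pieces (SD, n = 3 and n = 4), a ratio of 6.81. The two-sided exact permutation p was 0.0571, the smallest that 3 against 4 pieces can give, and 0.0952 after Benjamini-Hochberg adjustment over 10 measures. Saline pieces ranged from 0.0654% to 0.256% and control pieces from 0.0742% to 0.351%, so the long-coded values lay outside the range of the other 15 pieces. The saline piece 1RA, which shares the running number with 2LC4B and 8LC3, stood at 0.143%.

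**Figure D1:**
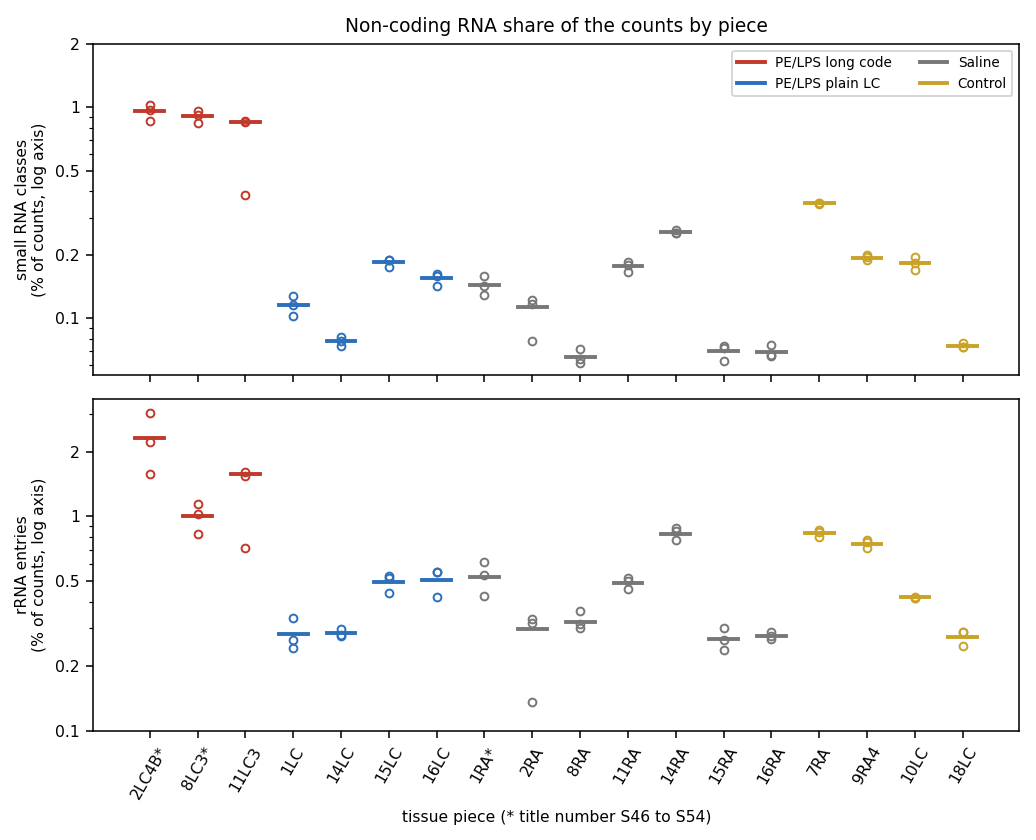
Share of counts in snoRNA, snRNA and other small ncRNA entries (top) and in rRNA entries (bottom), both as percent of counts on a log axis, for the 18 pieces. Open circles are libraries and bars are the summed piece. The long-coded pieces sit at 0.851% to 0.958% in the top panel, above all other pieces, and the low circle of 11LC3 is its library of 115109 counts at 0.384%.

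The snoRNA share was 0.543% to 0.647% in long-coded and 0.0551% to 0.147% in plain LC pieces, and the snRNA share was 0.197% to 0.268% in long-coded and 0.0168% to 0.0413% in plain LC pieces. Ribosomal RNA entries took 2.32%, 1.00% and 1.58% of the counts in 2LC4B, 8LC3 and 11LC3, against 0.284% to 0.506% in plain LC pieces, a ratio of the means of 4.17 with no overlap (exact permutation p = 0.0571, adjusted 0.0952). Protein-coding genes took 89.6% to 90.9% of the counts in long-coded pieces and 93.3% to 93.8% in plain LC pieces.

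The gene table held 1687 small RNA entries, of which 327 had enough counts to be tested. In the test across all genes (edgeR quasi-likelihood, called at a Benjamini-Hochberg adjusted p under 0.05), 905 of 17549 genes (5.16%) were called higher and 1561 (8.90%) lower in long-coded than in plain LC pieces. Small RNA entries made up 168 of the 905, or 18.6%, and no small RNA entry was called lower. Among these entries 109 of 224 snoRNAs, 44 of 84 snRNAs and 15 of 19 other small ncRNAs were called higher. Some of these entries passed the count filter only through the long-coded pieces, where they are high, so the counts are given as a description. Of the 132 entries with at least 10 counts in each plain LC piece, 91 (68.9%) were called higher and none lower, with a median log2 difference of 2.56, against a median of 0.01 over all genes tested.

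Single entries, chosen after their values were seen, show the size. The snoRNA entry LOC114117130 had 401, 273 and 474 CPM (counts scaled to the total of the piece) in 2LC4B, 8LC3 and 11LC3, against 14.6, 14.0, 13.3 and 8.89 CPM in the 4 plain LC pieces. The lowest long-coded value was far above the highest plain LC value, with a log2 difference of 4.93 ± 0.35 (SE, edgeR adjusted p = 2.72e-05, the smallest of all genes tested). LOC114117117, an snRNA entry, had 210, 104 and 249 CPM in long-coded pieces and 12.7, 10.5, 11.99 and 6.01 CPM in plain LC pieces (log2 difference 4.21 ± 0.38, edgeR adjusted p = 8e-05). LOC114117094, an ncRNA entry, had 98.8, 61.5 and 118 CPM in long-coded pieces and 16.8, 14.9, 16.0 and 11.9 CPM in plain LC pieces (2.65 ± 0.29, edgeR adjusted p = 0.000383). Small RNA genes come in near-identical copies, and the labels do not say how reads matching several copies were counted, so the values of single entries are uncertain.

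The rRNA entries did not move as a block. Of the 9 tested, 2 were called higher and 3 lower. LOC114112489, the most abundant, had 23331, 6440 and 14046 CPM in long-coded pieces, against 2104, 1429, 3000 and 2588 CPM in plain LC pieces (log2 difference 2.699 ± 0.53, edgeR adjusted p = 0.00793). KEF53_r02, an rRNA gene of the mitochondrial genome, was lower at 294, 289 and 286 CPM in long-coded pieces and 483, 906, 813 and 613 CPM in plain LC pieces (-1.26 ± 0.35, edgeR adjusted p = 0.0287).

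**Figure D2:**
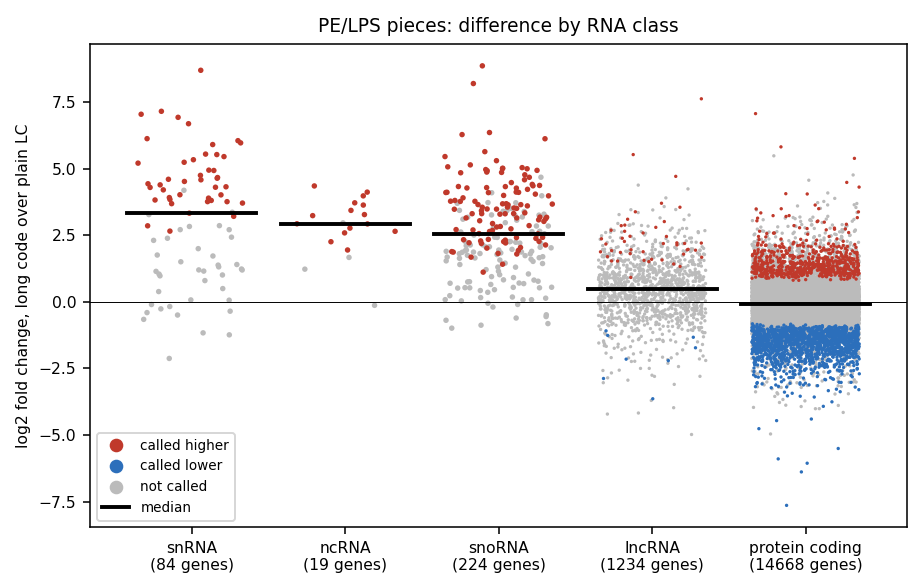
Log2 fold change of long-coded over plain LC PE/LPS pieces for each tested gene, by RNA class; red and blue points were called higher and lower, grey points were not called, and black bars are medians. The median is 3.35 for snRNA, 2.94 for other small ncRNA, 2.56 for snoRNA, 0.47 for long non-coding RNA and -0.06 for protein-coding genes.

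Long non-coding RNA genes, which are longer and often polyadenylated, leaned the same way by less. Of 1234 tested, 842 had a positive difference, with a median of 0.47. Among the 1234, 46 (3.73%) were called higher and 8 (0.648%) lower, against 5.16% and 8.90% of all genes tested, so calls higher were not more frequent than over all genes. Protein-coding genes lying over a small RNA gene in the RefSeq table were called higher about as often as the rest, 26 of 591 (4.40%) against 607 of 14077 (4.31%).

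The same split of sheep was tested in their saline lobes. Between saline pieces of the 3 sheep with a long-coded PE/LPS piece and those of the other 4 sheep, edgeR called 0 of 17588 genes (0%), 253 genes had an unadjusted p under 0.05, limma voom called 0 and DESeq2 called 6. The median over the 230 small RNA entries tested there was -0.05. Within the 3 long-coded sheep, with the sheep as a block, 74 of 18946 genes (0.391%) were called higher and 20 (0.106%) lower in PE/LPS than in saline pieces. Small RNA entries made up 60 of the 74. The balance of directions was not stable: 210 genes were called higher and 573 lower without the sheep block, 650 and 763 with DESeq2, and 194 and 787 without sheep 11, while limma voom called 88 higher and 12 lower. Within the 4 plain LC sheep the same contrast called 0 genes (0%), with 280 at an unadjusted p under 0.05, 1 called by DESeq2 and 0 by limma voom. For small RNA the long-coded PE/LPS pieces could be kept out of the choice of entries: 86 entries had at least 10 counts in each plain LC and each saline piece. Their median PE/LPS minus saline difference was 2.52 in long-coded sheep, with 35 called higher and 0 lower, and -0.04 in plain LC sheep. The median over all 388 entries tested, some of which passed the count filter through the long-coded pieces, was 3.13 in long-coded and 0.05 in plain LC sheep. Since the PE/LPS pieces are shared with the comparison above, these values are set beside it and not counted as separate evidence.

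The difference between these 2 contrasts of PE/LPS with saline pieces was tested directly. It was called higher for 16 of 18946 genes (0.0845%) and lower for 0 (0%), with 1226 genes lower at an unadjusted p under 0.05 by edgeR. Of the 16, 14 were small RNA entries. With the same block, DESeq2 called 216 genes in either direction and limma voom 13. The saline values of LOC114117130 were 22.2, 4.24 and 11.8 CPM in the long-coded sheep 2, 8 and 11, against 31.9, 20.2, 7.94 and 5.24 CPM in the plain LC sheep 1, 14, 15 and 16. The PE/LPS pieces of the long-coded sheep lay above all 7 saline values, and the log2 difference of the contrasts was 5.22 ± 0.64 (edgeR adjusted p = 0.0124). The 2 protein-coding calls were LOC101108868, named after its values were seen, and ACTRT3. Without sheep 1 the count was 0, without sheep 8 it was 4, without sheep 14 it was 5, without sheep 15 it was 7 and without sheep 11 it was 333. For PE/LPS against saline in long-coded sheep the count of 94 was 26 without sheep 2, 29 without sheep 8, 981 without sheep 11, 41 without sheep 1, 52 without sheep 15 and 339 without sheep 16. The median standard error was 0.67 for this difference and 0.40 for the comparison of title classes in PE/LPS.

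By the choice of called genes, most separated the title classes: values of long-coded and plain LC pieces did not overlap for 832 of the 905 genes called higher (91.9%) and 1520 of the 1561 called lower (97.4%), given here as a description. Values also did not overlap for 2350 of the 15083 genes not called (15.6%), so a lack of overlap in a single gene is common. More than 4-fold differences were seen for 289 genes called higher and 317 called lower. The calls depended on the pieces: without 2LC4B 1036 genes were called, without 8LC3 1328, without 14LC 1044 and without 15LC 1058. With 11LC3 as the only long-coded piece 143 genes were called, 137 higher and 6 lower. In that fit the 4 plain LC pieces alone give the spread, and 11LC3 is assumed to vary like them. Of the 132 small RNA entries with at least 10 counts in each plain LC piece, 47 were then called higher and 0 lower, with a median of 2.48.

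The 12 named genes called higher with the smallest p have various roles. ACTRT3, an actin-related protein, had 300, 138 and 260 CPM in 2LC4B, 8LC3 and 11LC3, against 29.997, 29.985, 23.6 and 16.0 CPM in 1LC, 14LC, 15LC and 16LC. The log2 difference was 3.24 ± 0.35 (edgeR adjusted p = 0.000337), and the choice of genes requires that the title classes do not overlap. In the test of the difference between contrasts ACTRT3 was called as well (2.69 ± 0.43, edgeR adjusted p = 0.033). RGS18, a regulator of G protein signalling of platelets and white cells, had 208, 120 and 98.3 CPM in long-coded pieces and 34.6, 20.995, 27.2 and 21.6 CPM in plain LC pieces (2.46 ± 0.33, edgeR adjusted p = 0.00138). MYC, a growth-promoting transcription factor, had 64.3, 99.3 and 69.5 CPM in long-coded pieces, against 27.5, 29.96, 27.5 and 25.8 CPM in plain LC pieces (1.51 ± 0.26, edgeR adjusted p = 0.00474). TFDP1, the dimer partner of the E2F cell cycle factors, had 46.4 to 66.2 CPM in long-coded pieces and 9.01 to 18.6 CPM in plain LC pieces. SEC24B, of the vesicle coat that leaves the endoplasmic reticulum, had 139 to 217 CPM in long-coded and 34.7 to 51.7 CPM in plain LC pieces. The immediate early gene IER5, the cyclin-dependent kinase 2 partner CDK2AP1, the phospholipase of immune receptors PLCG2, the phosphatase CDC14A, the serine synthesis enzyme PSPH, TSC22D2 and BTBD3 completed the 12, with log2 differences of 1.69 (PLCG2) to 2.13 (PSPH).

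The named genes called lower with the smallest p also have various roles. NKG7, a membrane protein of cytotoxic granules, had 10.9, 7.69 and 18.1 CPM in long-coded pieces, against 72.1, 174, 137 and 80.6 CPM in plain LC pieces, with a log2 difference of -3.22 ± 0.42 (edgeR adjusted p = 0.00133). HSPA12B, an endothelial relative of the HSP70 chaperones, had 8.18, 10.1 and 15.7 CPM in long-coded pieces and 60.2, 81.0, 67.4 and 61.1 CPM in plain LC pieces (-2.55 ± 0.31, edgeR adjusted p = 0.000873). WARS1, the tryptophan tRNA synthetase induced by interferon gamma, had 19.9, 19.6 and 34.4 CPM in long-coded pieces, against 144, 215, 248 and 119 CPM in plain LC pieces (-2.86 ± 0.37, edgeR adjusted p = 0.00133). In all 3 genes the highest long-coded value lay below the lowest plain LC value, as the choice of genes requires. ALDOC, an aldolase of glycolysis, had 1.15, 1.04 and 3.64 CPM in long-coded pieces and 19.5 to 28.9 CPM in plain LC pieces (-3.54 ± 0.48, edgeR adjusted p = 0.00152). The spectrin SPTAN1, the actin-binding synaptopodin SYNPO, the mitochondrial outer membrane protein MTCH1, the dipeptidase CNDP2, TTLL12, RILPL2 and SHKBP1 were also among the 12, with differences of -2.13 (SYNPO) to -2.701 (SHKBP1).

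**Figure D3:**
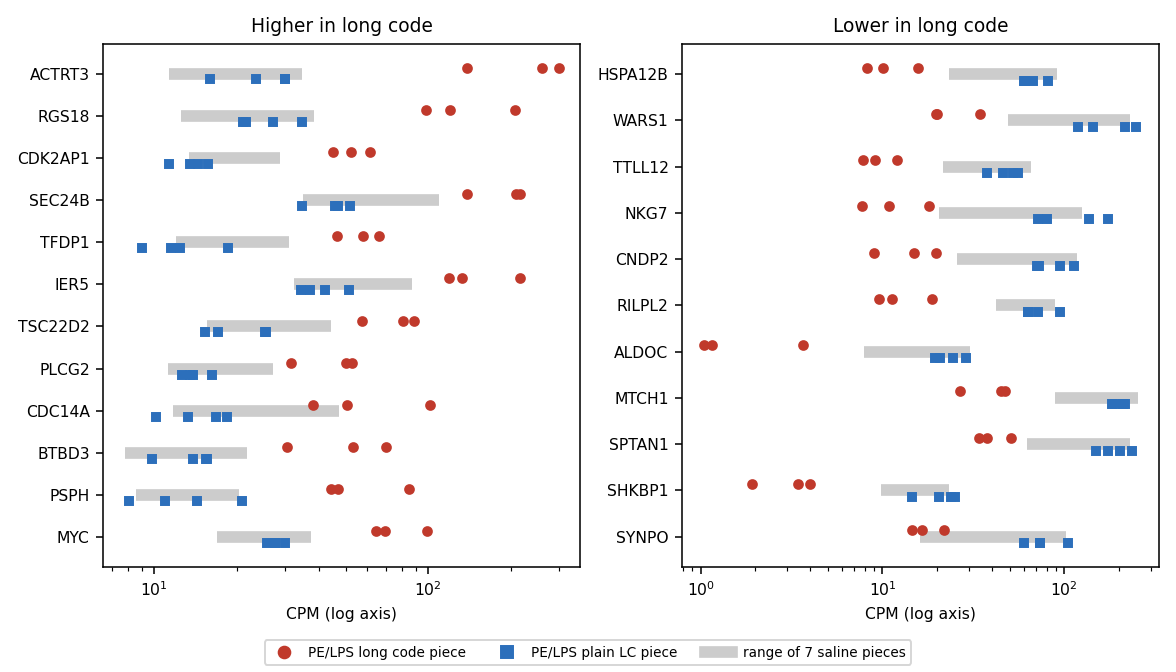
CPM on a log axis of 12 genes called higher and 11 called lower, from the 12 with the smallest p in each direction (symbol given, no overlap); red circles are the 3 long-coded and blue squares the 4 plain LC PE/LPS pieces, and grey bars span the 7 saline pieces. Long-coded and plain LC values stand apart for each gene, as the choice of genes requires, and the plain LC values lie mostly on the saline bars: NKG7 spans 20.4 to 124 CPM in saline pieces.

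Tissue content was described with 27 marker lists for cell types, of which 14 had a positive and 13 a negative median log2 difference. Each list count below is to be read against all genes tested, of which 8.90% were called lower and 5.16% higher with a median of 0.01. The 7 epithelial lists divided: the medians were -0.79 for general epithelium, -0.76 for type 2, -0.61 for type 1 and -0.48 for ciliated cells, against 0.60 for basal and squamous, 0.35 for secretory and mucous and 0.00 for neuroendocrine cells. Without 8LC3 the medians were -0.06 for basal and squamous and -0.33 for secretory and mucous cells. Of 14 general epithelial genes tested, 6 were called lower and 0 higher, with a median log2 difference of -0.79. KRT19, a keratin of simple epithelia, had 44.4, 61.1 and 88.8 CPM in long-coded pieces, against 225, 188, 225 and 170 CPM in plain LC pieces (edgeR adjusted p = 0.00793). Tight junction genes CLDN3 and CLDN4 were called lower too, by 2.22 and 1.39 on the log2 scale. The summed level of the list was 622 to 765 CPM in long-coded and 1016 to 1785 CPM in plain LC pieces, with no overlap, and 1032 to 1671 CPM in saline pieces.

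Of 15 type 2 cell genes, 4 were called lower and 0 higher (median -0.76). SFTPA1, a surfactant protein of the airspace lining, had 1216, 592 and 1715 CPM in long-coded pieces and 9304, 6292, 7013 and 3446 CPM in plain LC pieces, a difference of -2.45 ± 0.54 (edgeR adjusted p = 0.0114). The highest long-coded value was under the lowest plain LC value, as for most genes called lower. CTSH, a protease that processes surfactant protein, fell to 58.1 to 82.4 CPM in long-coded pieces, against 136 to 267 CPM in plain LC pieces. MUC1, a membrane mucin, had 20.8 to 44.03 CPM in long-coded and 59.2 to 70.3 CPM in plain LC pieces (edgeR adjusted p = 0.0299). SFTPC had 18670, 2782 and 19116 CPM in long-coded pieces, against 113692, 41762, 37523 and 21084 CPM in plain LC pieces. Its groups did not overlap, but 11LC3 and 16LC were close and the spread was wide, and SFTPC was not called (-1.97 ± 0.80, edgeR adjusted p = 0.118). Scaled by library size alone it was called, at an edgeR adjusted p of 0.0497.

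Of 16 type 1 cell genes tested, 4 were called lower and 0 higher, with differences from -2.37 to 1.86 and a median of -0.61. AGER, a receptor abundant on type 1 cells, had 321, 131 and 452 CPM in long-coded pieces, against 1751, 1456, 2007 and 1109 CPM in plain LC pieces (-2.37 ± 0.47, edgeR adjusted p = 0.00812). AQP5, a water channel, had 80.9 to 114 CPM in long-coded and 164 to 264 CPM in plain LC pieces. COL4A4, a basement membrane collagen chain, had 42.2 to 49.6 CPM in long-coded and 73.6 to 113 CPM in plain LC pieces. PDPN, a membrane glycoprotein of type 1 and lymphatic cells, had 438 to 690 CPM in long-coded and 320 to 432 CPM in plain LC pieces and was not called (0.58 ± 0.32, edgeR adjusted p = 0.246). The summed level of the type 1 list overlapped, at 3703 to 8219 CPM in long-coded and 4305 to 6277 CPM in plain LC pieces.

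Of 25 ciliated cell genes 3 (12%, near the 8.90% of all genes) were called lower, TPPP3, DNAI2 and TEKT1, by 1.48, 1.86 and 1.18 on the log2 scale, and 0 higher. FOXJ1, the master factor of motile cilia, had 18.7, 54.2 and 45.6 CPM in long-coded pieces and 21.5, 33.1, 51.3 and 51.5 CPM in plain LC pieces, which overlap (0.03 ± 0.39, edgeR adjusted p = 0.976). SCGB1A1, the secretory protein of club cells, had 29.7, 18.4 and 160 CPM in long-coded pieces, against 173, 727, 315 and 341 CPM in plain LC pieces. It was called lower (-2.46 ± 0.73, edgeR adjusted p = 0.0436), not overlapping by a small gap between 11LC3 and 1LC, and the call was lost without 2LC4B (0.172), 8LC3 (0.108), 14LC (0.105), 15LC (0.0803) or 16LC (0.0977). Of the 18 genes of the secretory and mucous list 13 had a positive difference. CREB3L1, a secretory pathway factor, was called higher at 10.9 to 23.4 CPM in long-coded and 3.50 to 8.50 CPM in plain LC pieces. No gene of the 10 basal and squamous cell genes was called, 6 had a positive difference, and their summed level was 500 to 702 CPM in long-coded and 126 to 448 CPM in plain LC pieces. TP63, their defining factor, had 4.60, 24.4 and 4.46 CPM in long-coded and 0.641 to 4.60 CPM in plain LC pieces (edgeR adjusted p = 0.0532).

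Capillary and general endothelial genes were mixed. Of 26 tested 5 were called lower and 0 higher, with a median of -0.14, which was 0.09 without 14LC. VWF, the platelet-binding factor that endothelium stores, had 10.1, 6.61 and 19.8 CPM in long-coded pieces and 48.1, 72.8, 45.4 and 87.1 CPM in plain LC pieces (-2.36 ± 0.41, edgeR adjusted p = 0.00477). ESAM, a junction molecule, had 29.1 to 40.05 CPM in long-coded and 85.2 to 191 CPM in plain LC pieces. TIE1, a receptor of the angiopoietin system, had 4.41 to 9.72 CPM in long-coded and 12.9 to 38.4 CPM in plain LC pieces. The summed level of the list did overlap, at 2162 to 2251 CPM in long-coded and 2131 to 2814 CPM in plain LC pieces. GJA5, a gap junction protein of arteries, was the single call among 13 arterial and venous genes, lower by 1.34 on the log2 scale.

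Lymphocyte genes were called lower in several lists. Of 13 natural killer and cytotoxic genes 6 were called lower and 0 higher (median -0.67). Beside NKG7 these included CTSW, a cathepsin of cytotoxic cells, with 15.5, 9.02 and 11.5 CPM in long-coded pieces and 50.3, 103, 71.7 and 39.1 CPM in plain LC pieces. CST7, a cystatin of the same cells, had 1.15 to 4.75 CPM in long-coded and 8.01 to 16.1 CPM in plain LC pieces. The summed cytotoxic level was 180 to 256 CPM in long-coded and 333 to 907 CPM in plain LC pieces, but saline pieces reached down to 126 CPM. Of 20 T cell genes 4 were called lower, among them the T cell receptor component CD3D with 6.26, 4.33 and 15.6 CPM in long-coded pieces and 45.6, 56.0, 62.7 and 34.3 CPM in plain LC pieces (-2.48 ± 0.43, edgeR adjusted p = 0.00504). The coreceptor genes CD4 and CD8B were also called lower. The summed T cell level overlapped, with 551 to 620 CPM in long-coded and 558 to 704 CPM in plain LC pieces. Of 21 B and plasma cell genes only BLK (4.76%), a kinase of B cell receptor signalling, was called, lower by 3.03 on the log2 scale at 0.128 to 1.24 CPM in long-coded and 3.68 to 11.2 CPM in plain LC pieces. The B and plasma cell list did not lean lower: 13 of the 21 had a positive difference. Its median was 0.18, and -0.27 without 11LC3. Of 10 immunoglobulin or T cell receptor constant regions, 4 were called lower and 0 higher.

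Of 22 macrophage genes 3 (13.6%) were called lower and 1 (4.55%) higher, shares near those of all genes, with a median of -0.60. C1QC, a chain of complement C1q made by macrophages, had 247, 186 and 217 CPM in long-coded pieces, against 761, 1449, 1394 and 481 CPM in plain LC pieces (edgeR adjusted p = 0.00811). APOE, a lipid carrier, had 21.1 to 59.9 CPM in long-coded and 120 to 145 CPM in plain LC pieces. FABP4, a fatty acid binding protein of alveolar macrophages and adipocytes, was called higher with 66.5, 88.3 and 66.4 CPM in long-coded pieces and 36.6, 8.04, 14.4 and 6.73 CPM in plain LC pieces (2.19 ± 0.49, edgeR adjusted p = 0.0118). FCER1A, a chain of the high-affinity IgE receptor of mast and dendritic cells, was called higher at 8.13 to 19.8 CPM in long-coded and 0.908 to 5.23 CPM in plain LC pieces. Of 8 mast cell and eosinophil genes FCER1A was the only call and 7 had a positive difference (median 0.67). FCER1A was also the only call among 14 monocyte and dendritic cell genes, of which 8 had a negative difference (median -0.44). Of 13 neutrophil genes, S100A8 was called higher and LCN2 and ELANE lower, and the median of 0.19 turned negative without 2LC4B, 8LC3, 11LC3, 1LC or 16LC.

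Stromal lists showed few calls. Of 22 matrix fibroblast genes LUM, a collagen-binding proteoglycan, was called higher and MFAP4, an elastic fibre protein, lower. LUM had 300, 589 and 280 CPM in long-coded pieces and 182, 112, 133 and 73.4 CPM in plain LC pieces (edgeR adjusted p = 0.0134). No gene was called among 21 smooth muscle and pericyte genes, 10 lymphatic, 5 mesothelial, 7 striated muscle, 3 red cell, 3 platelet or 5 neuroendocrine genes. The red cell median was 1.33 with all 3 members positive, the largest of the 27 lists, and the medians were 0.35 for mesothelium, 0.31 for lymphatic endothelium, -0.20 for platelets, -0.42 for smooth muscle and -0.57 for striated muscle. MYLK, the myosin light chain kinase, had 477, 468 and 488 CPM in long-coded and 280 to 670 CPM in plain LC pieces, with a log2 difference of -0.02 ± 0.35. HBB, which marks red cells, had 7.27 to 41.03 CPM in long-coded and 1.58 to 35.7 CPM in plain LC pieces and was not called (edgeR adjusted p = 0.485). PMP22 was the only call among 7 nerve and Schwann cell genes (lower by 1.78, list median 0.50) and COL11A1 among 10 cartilage genes (higher by 2.09, list median 1.04).

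**Figure D4:**
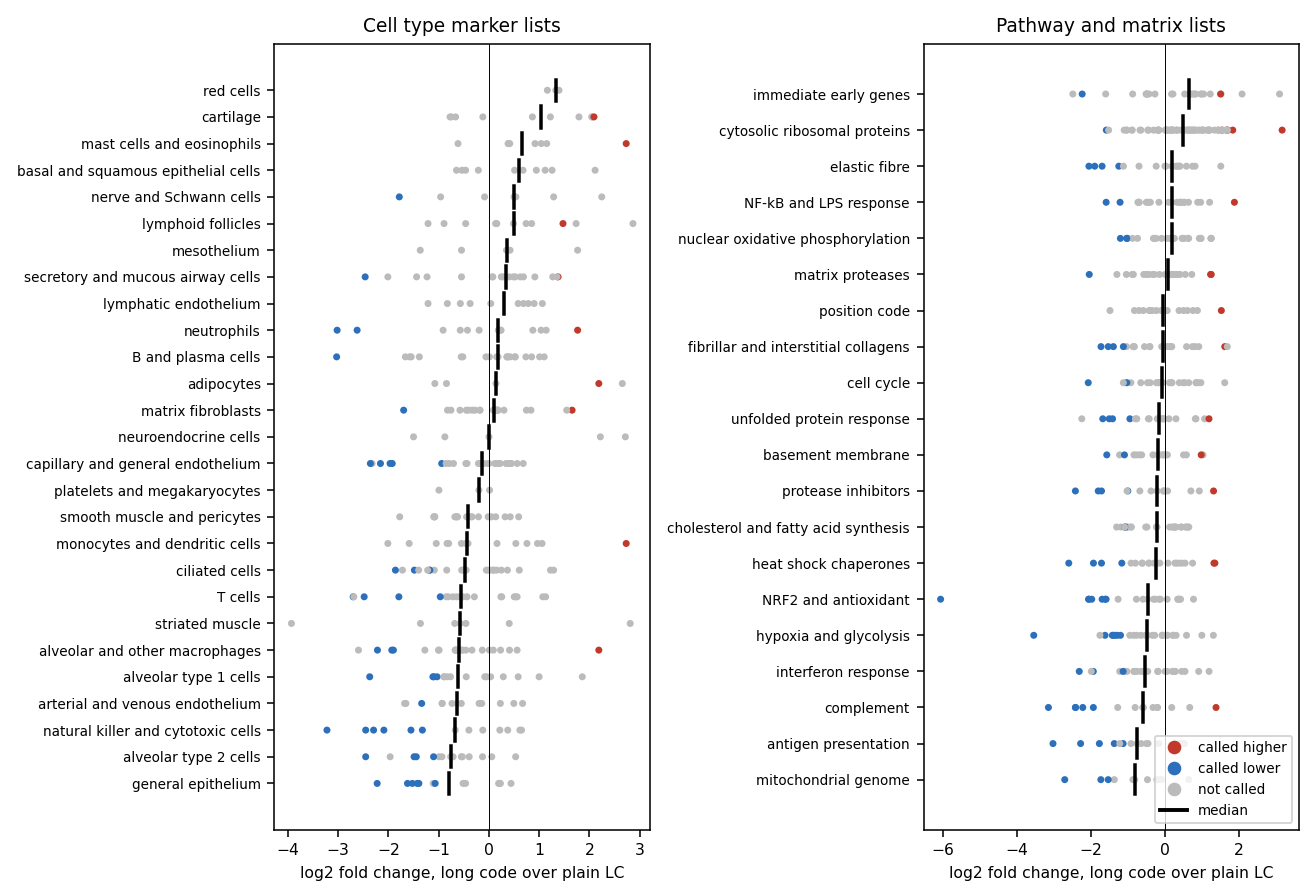
Log2 fold change of long-coded over plain LC PE/LPS pieces for each tested member of 27 cell type lists (left) and 20 pathway lists (right); red and blue points were called higher and lower, grey points were not called and black bars are list medians. The lowest medians are -0.79 for general epithelium and -0.82 for the mitochondrial genome, and calls in both directions occur within several lists.

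Among 20 pathway and matrix lists, several held calls in 1 direction only, among them lists of metabolism and oxidative stress. Of 27 hypoxia and glycolysis genes 7 were called lower and 0 higher (median -0.47), including GAPDH, the glycolytic dehydrogenase often used for normalization, with 35.8, 37.3 and 72.0 CPM in long-coded pieces and 105, 147, 120 and 143 CPM in plain LC pieces (edgeR adjusted p = 0.0145). GPI, the glucose phosphate isomerase, had 12.2 to 25.97 CPM in long-coded and 46.9 to 62.0 CPM in plain LC pieces. Of 21 NRF2 and antioxidant genes 7 were called lower and 0 higher, among them the extracellular superoxide dismutase SOD3 (-2.06) and the glutathione peroxidases GPX1 (-1.70) and GPX3 (-1.98). FTL, the ferritin light chain and also among the 7, had 1.92, 2.08 and 1.23 CPM in long-coded pieces and 124, 155, 188 and 4.19 CPM in plain LC pieces. In saline the log2 difference of FTL between the same sheep was -4.88 and not called. Of 11 mitochondrially encoded genes ND4, COX3 and ATP6 were called lower and 0 higher (median -0.82), and the mitochondrial share of counts was 0.632% to 1.03% in long-coded and 0.810% to 1.62% in plain LC pieces, which overlap (exact permutation p = 0.171).

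Of 15 antigen presentation genes 5 were called lower and 0 higher (median -0.75). CD74, the invariant chain of class II molecules, had 142, 176 and 439 CPM in long-coded pieces, against 1555, 2451, 3036 and 1277 CPM in plain LC pieces (-3.02 ± 0.53, edgeR adjusted p = 0.00511). TAPBP and TAP1, which load peptides on class I molecules, were lower by 2.28 and 1.13 on the log2 scale. Of 15 complement genes 5 were called lower and 1 higher. CFD, complement factor D, had 441, 180 and 785 CPM in long-coded pieces and 2599, 6468, 6061 and 1729 CPM in plain LC pieces (-3.15 ± 0.65, edgeR adjusted p = 0.0091). SERPING1, the C1 inhibitor, had 14.4, 14.5 and 34.4 CPM in long-coded pieces and 124, 112, 115 and 108 CPM in plain LC pieces (edgeR adjusted p = 0.00234). For these 3 genes the title classes did not overlap, as for 97.4% of all genes called lower. Saline pieces covered 456 to 2077 CPM of CD74 and 407 to 4960 CPM of CFD. Of 24 interferon response genes 3 (12.5%, near the 8.90% of all genes) were called lower and 0 higher, including IRF9, a component of the interferon-activated factor, and the chemokine CXCL10. Of 25 genes of the NF-kB and LPS response, IL1A was called higher by 1.88 and TNFAIP3 and ICAM1 lower.

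Of 73 cytosolic ribosomal protein genes 5 (6.85%, near the 5.16% of all genes) were called higher and 1 (1.37%) lower, with 56 positive differences and a median of 0.49. RPL5 had 21.2 to 34.7 CPM in long-coded and 5.14 to 13.1 CPM in plain LC pieces, and RPL7 had 8.15 to 11.0 CPM in long-coded and 2.31 to 3.84 CPM in plain LC pieces. Both are a very small part of the list, which summed to 56563 to 184980 CPM in long-coded and 51350 to 134073 CPM in plain LC pieces. The labels do not say how reads matching several genes were counted, so these single values are uncertain. RPL36 had 1390, 143 and 1212 CPM in long-coded pieces and 129, 78.8, 141 and 64.5 CPM in plain LC pieces, so that 8LC3 lay next to 15LC. The share of counts in the list was 6.65% to 15.0% in long-coded and 6.04% to 11.2% in plain LC pieces, which overlap (exact permutation p = 0.229). Of 23 heat shock chaperone genes HSPA8 and HSPA13 were called higher (1.33 and 1.35) and 4 lower, among them HSPB1, a small heat shock protein, with 92.9, 61.0 and 176 CPM in long-coded pieces and 443, 736, 881 and 642 CPM in plain LC pieces. Of 27 immediate early genes MYC was called higher and JUND lower, and the median of 0.65 was -0.08 without 8LC3. Of 20 unfolded protein response genes 4 were called lower, including the calcium-binding chaperone CALR and the stress sensor SESN2, and SEL1L, which serves protein disposal from the endoplasmic reticulum, was called higher.

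Matrix genes also differed in composition. ELN, the precursor of elastic fibres, had 10.9, 16.3 and 22.3 CPM in long-coded pieces, against 52.04, 45.1, 72.9 and 79.7 CPM in plain LC pieces (-1.90 ± 0.34, edgeR adjusted p = 0.00515). MFAP2 and MFAP4, microfibril-associated proteins, were called lower with it, among 4 of 19 elastic fibre genes, while the list median was 0.19. Of 24 collagen and collagen-processing genes COL12A1 was called higher, with 263 to 421 CPM in long-coded and 73.7 to 134 CPM in plain LC pieces, and 4 were called lower, including the collagen chaperone SERPINH1 and the proteoglycan BGN. Among 24 matrix protease genes ADAMTS1 and PLAU were called higher (1.24 and 1.25) and CTSB lower (-2.04). MMP12, the macrophage elastase, had 2.05, 6.93 and 6.16 CPM in long-coded pieces and 4.54, 9.97, 2.28 and 0.815 CPM in plain LC pieces, which overlap. Of 15 protease inhibitor genes TIMP1 and SERPING1 were among 4 called lower and RECK was called higher. SERPINA1, the main inhibitor of neutrophil elastase, was barely detected, at 0.704 to 2.40 CPM in long-coded and 0.489 to 1.71 CPM in plain LC pieces.

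The remaining lists held few calls. MVD and FASN were called lower among 25 genes of cholesterol and fatty acid synthesis, and NUSAP1 and UBE2C among 26 cell cycle genes. NDUFA8, NDUFS6 and SDHA were called lower among 29 nuclear genes of oxidative phosphorylation, of which 19 had a positive difference (median 0.18). LAMB3 was called lower and COL18A1 higher among 19 basement membrane genes, and CXCL13, the B cell attracting chemokine, was called higher among 11 lymphoid follicle genes. HOXB2 was the only call among 19 genes of positional identity, at 8.66 to 17.1 CPM in long-coded and 3.79 to 5.21 CPM in plain LC pieces. HOXA7 had 24.03, 12.1 and 13.02 CPM in long-coded pieces, against 1.49, 10.9, 11.8 and 18.9 CPM in plain LC pieces and 0.356 to 1.62 CPM in saline pieces, and was not called between title classes (edgeR adjusted p = 0.524). CXCL8, a neutrophil chemokine, had 9.02 to 35.9 CPM in long-coded and 3.83 to 15.7 CPM in plain LC pieces and was not called either (edgeR adjusted p = 0.14).

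Gene length went with the direction of the calls among protein-coding genes. Of genes spanning 2 to 5 kb, 15.2% were called lower, and the share was 13.2% at 5 to 10 kb, 13.4% at 10 to 20 kb, 10.1% at 20 to 50 kb, 5.94% at 50 to 100 kb, 5.75% at 100 to 200 kb and 4.97% above 200 kb, with 7.51% below 2 kb. The share called higher was 8.71% below 2 kb and 3.43% to 4.96% in the longer classes. Lengths are the spans in the RefSeq table, introns included.

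The saline and control pieces took no part in the choice of genes, and their levels of the called genes were compared with the plain LC mean. Over the 905 genes called higher, the median log2 level above that mean was 1.72, 1.54 and 1.37 in 2LC4B, 8LC3 and 11LC3, by construction, while saline pieces lay between -0.13 and 0.64 and control pieces between -0.09 and 0.96. Over the 1561 genes called lower the median was -1.70, -1.70 and -1.21 in the long-coded pieces, -0.92 to 0.13 in saline and -0.94 to 0.14 in control pieces. The pieces nearest to the long-coded ones were the control piece 9RA4 (0.96 and -0.94) and the saline piece 11RA of sheep 11 (0.64 and -0.92). 9RA4 is the only other piece whose title has a character after the code. It was the highest of the 4 control pieces for 60.7% of the genes called higher, against 30.6% of the genes not called, and the lowest for 70.9% of the genes called lower, against 34.2% of those not called. For small RNA the order differed: its median was 0.67 in 9RA4, above all plain LC and saline pieces, and 0.03 in 11RA. The highest values outside the long-coded pieces were 1.69 in the control piece 7RA and 0.88 in the control piece 10LC.

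**Figure D5:**
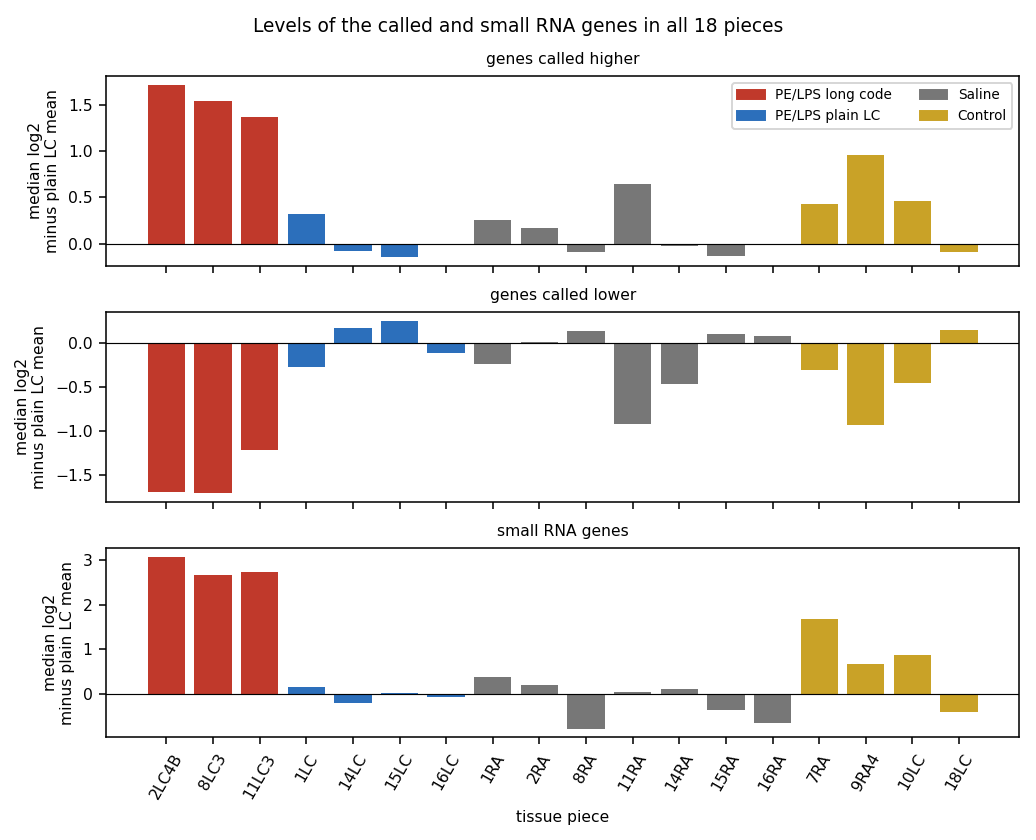
Median over genes of the log2 level minus the plain LC mean in each of the 18 pieces, for the 905 genes called higher (top), the 1561 called lower (middle) and the 327 small RNA entries tested (bottom); bar colours give the group. The long-coded bars are large by construction in the top and middle panels, where 9RA4 and 11RA are the nearest other bars. In the bottom panel 7RA at 1.69 is the nearest. Some entries of that panel passed the count filter only through the long-coded pieces, so those bars are not free of the choice of entries either.

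In a principal component analysis of the 18 pieces, the component with the largest share, 20.1% of the variance, placed 2LC4B at -148, 11LC3 at -90.8 and 8LC3 at -86.0, followed by 9RA4 at -74.1, with all other pieces between -8.25 and 58.8. Spearman correlations between PE/LPS pieces were taken over the 19812 genes that passed the count filter set on all 18 pieces. They were 0.937 to 0.943 among long-coded pieces, 0.939 to 0.969 among plain LC pieces and 0.888 to 0.931 between the classes, as a description of 7 pieces.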

How the data were processed

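RNA was sequenced from 18 sheep lung pieces, 3 libraries each. Per the labels' protocols, total RNA was extracted with a micro-scale column kit, indexed at poly-A priming, amplified by template switching and tagmented. The deposited values are raw gene counts in 1 table. Per the submitters' processing notes, the tools were STAR 2.7.10b and featureCounts of Subread 1.6.3, with edgeR 3.40.2, Trimmomatic 0.39 and FastQC 0.11.9, listed without roles. The labels give no build, strand setting or treatment of multi-mapped reads. Of 30186 gene entries 2 were not used. RNA classes came from the RefSeq table of assembly ARS-UI_Ramb_v3.0, which matched 84.3% of entries.

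Counts of a piece's libraries were summed and tested with edgeR 4.0.16 quasi-likelihood (robust, TMM, filterByExpr with a minimum count of 10) in R 4.3.3, with limma 3.58.1 and DESeq2 1.42.0 as alternatives and SciPy 1.17.1 for exact two-sided permutation tests. Standard errors derive from the edgeR test. The procedure was tested on simulated data. CPM use TMM-scaled totals of all 18 pieces. The 12 genes per direction with the smallest p, a symbol and no overlap are named, with up to 3 called genes per list, 8 fixed genes and the top 5 genes per direction in the other contrasts where described. Of the 12 lower genes, 1 is not reported here. Members and lists were chosen with earlier results of these data known. Sheep numbers pair saline with PE/LPS pieces because the design text names both kinds of lobe for 7 sheep and their title numbers match. The deviations of same-numbered pieces from their group means correlated at -0.26 to 0.24, above 0.1 in 3 of 7 pairs. Replicates are separate sheep by their title numbers. Piece totals were 9653262 to 41946705 counts.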

Additional observations from a re-analysis of the deposited data

Results flagged for a closer look

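The PE/LPS minus saline contrast, which is also an LC minus RA contrast, differed between long-coded and plain LC sheep for 5 of the named genes. The edgeR test was of the difference itself. The log2 difference of the contrasts was 5.22 for the snoRNA entry LOC114117130 (edgeR adjusted p = 0.0124), 3.28 for the snoRNA entry LOC114109488 (0.0124), 6.53 for the snRNA entry LOC114108902 (0.0478), 4.27 for the snRNA entry LOC114117117 (0.033) and 2.69 for ACTRT3 (0.033). The small RNA entries were chosen after their values were seen and ACTRT3 for its difference between these PE/LPS pieces, so the separation of their PE/LPS values is no support. LOC114108902 had 30.3, 16.6 and 48.2 CPM in long-coded and 0.210 to 0.815 CPM in plain LC pieces. A check for a piece far from the others of its group covered library measures in plain LC, saline and control pieces and named genes in plain LC pieces. Over 62 sets of values it found 0, where chance gives about 1 in 20. The 3 long-coded pieces were not checked in this way.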

How the results depend on the processing

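Between title classes, leaving out single pieces gave 1036 to 2958 called genes. Library 1, 2 or 3 alone gave 412, 1557 and 1520. Without the pieces numbered S46 to S54 the count was 143, or 3 with all groups in the fit, and adding the small RNA share as a covariate to the fit of 18 pieces gave 0 (1735 at an unadjusted p under 0.05). That share does not overlap between the title classes. These last 2 fits were chosen after seeing the data. Other scalings, filters, DESeq2, limma voom, thinning, protein-coding genes alone and leaving out the library of 115109 counts stayed within 1.5 times the reported count (1720 to 3496).

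In saline pieces DESeq2 called 6 genes, and leaving out single pieces gave 0 to 3. PE/LPS against saline in long-coded sheep gave 783 calls without the replicate block, 1413 with DESeq2, 419 without a filter and 26 to 981 leaving out single sheep. In plain LC sheep DESeq2 called 1. The difference of the contrasts gave 6 calls without the replicate block, 216 with DESeq2, 48 without a filter and 0 to 333 leaving out single sheep. The cause was not tested.

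List medians that moved by more than the spread between pieces ranged, leaving out single pieces, over 0.54 to 2.00 for cartilage, -0.27 to 1.22 for adipocytes, -0.49 to -0.31 for glycolysis, -1.46 to -0.49 for the mitochondrial genome, 0.0269 to 0.32 for elastic fibre, -0.46 to -0.16 for protease inhibitors, -0.82 to -0.32 for antioxidant genes, -1.13 to -0.55 for antigen presentation, -0.94 to -0.14 for ciliated cells, -1.25 to -0.73 for general epithelium, -0.15 to 0.41 for lymphatic endothelium, 0.22 to 0.94 for nerve, -0.45 to 0.138 for neutrophils, -0.0779 to 1.06 for immediate early genes, -1.15 to -0.50 for type 2 cells, -0.63 to -0.40 for type 1 cells, -0.68 to -0.11 for platelets, -0.20 to 0.0861 for capillary endothelium, -0.40 to 0.15 for cholesterol synthesis, -0.14 to 0.28 for the cell cycle and -0.12 to 0.13 for matrix proteases.

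With the covariate the sign turned for SCGB1A1 (0.22), CXCL8 (-1.27), AQP5 (0.13), CREB3L1 (-0.46), MFAP4 (0.11), COL11A1 (-1.56), PMP22 (0.16), S100A8 (-0.60), CD8B (0.42), ICAM1 (0.38), SEL1L (-0.19), NDUFA8 (0.00824), SDHA (0.27) and COL18A1 (-0.59). Uncalled genes also turned: SERPINA1 with library 1 alone (-0.41) and without S46 to S54 (-0.84 and -0.83), and FOXJ1 with library 1 (-0.14) or 2 (-0.0467) alone. Leaving out single pieces, SERPINA1 ranged from -0.73 to 0.37, FOXJ1 from -0.25 to 0.35 and MMP12 from -0.0809 to 1.07. The share of counts in the 100 most abundant genes differed by 2.69 percentage points, or -0.58 without 2LC4B and up to 6.62. Measures at equal depth were not recomputed for single libraries. Long-coded depth limits genes of low level.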

Other observations

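Within the 3 long-coded sheep, some genes other than small RNA were also called between PE/LPS and saline pieces. Of the 74 genes called higher 12 were protein-coding, and all 20 called lower were. Protein-coding genes made up 15373 of the 18946 genes tested. They were thus called higher less often than all genes tested (0.391%), and lower about as often (0.106%). HOXA7, a positional transcription factor, was higher in PE/LPS (LC) than in saline (RA) pieces by 4.54 on the log2 scale in long-coded sheep (edgeR adjusted p = 0.017). It differed by 2.94 in plain LC sheep (not called), and the difference between the title classes was not called (edgeR adjusted p = 0.58). In long-coded sheep EIF3M, a translation initiation subunit, was higher by 2.39 and HSPA6, a stress-induced chaperone, by 2.46. RILPL2, MACROD1, FARS2, TMEM176B and L3MBTL2 were lower by 2.32, 2.44, 2.06, 2.98 and 2.34. HSPA6 was not called between title classes in PE/LPS (0.32, edgeR adjusted p = 0.81).

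Of the 94 genes called in long-coded sheep, 71 of the 74 higher and all 20 lower were called the same way against plain LC pieces, and both counts use the same 3 PE/LPS pieces.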
